A study of Mus musculus and Homo sapiens with 24 samples.

Results

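The suppressors of cytokine signalling (SOCS) are 8 genes, SOCS1 to SOCS7 and CISH, and their levels were followed over 3 days in each of 2 skeletal myoblast lines, C2C12 from mouse and LHCN-M2 from human muscle. The genes were taken by symbol, ignoring case, from the count table of each line, which gave 8 of 56748 rows in C2C12 and 8 of 58735 rows in LHCN-M2. The family was selected on its measured levels over the 3 days of each line, so its levels and fold changes are a description and carry no test. All 8 genes passed the filter on low counts in both lines.

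SOCS proteins act as a brake on cytokine signalling. A cytokine bound to its receptor activates Janus kinases (JAKs), these phosphorylate STAT transcription factors, and the STATs switch on target genes that include CISH, SOCS1, SOCS2 and SOCS3. The SOCS proteins then bind receptors or kinases through their SH2 domain and recruit, through the SOCS box, elongins and a cullin ubiquitin ligase. In skeletal muscle, growth hormone, interleukin-6 and leukaemia inhibitory factor all signal through this route.

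Polyadenylated RNA was sequenced in 24 libraries, 4 for each of 6 groups. These were C2C12 at day 0, day 1 and day 6, and LHCN-M2 at day 0, day 1 and day 12 of differentiation. C2C12 is a cloned line from mouse leg muscle, LHCN-M2 is a human myoblast line made immortal by added TERT and CDK4 genes, and every library carries the genotype label control. Each species is represented by a single line, so species, line and culture cannot be told apart. The medium of each day and the origin of the replicates are not given in the labels used here, so errors and p-values cover only library-to-library spread, possibly technical.

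A C2C12 library held between 32795699 and 43827517 counts, and a library of LHCN-M2 between 33030258 and 48546621. Levels are in CPM, a gene's read count relative to the TMM-scaled total of its library, and each log2 fold change has its standard error (SE). Of 7 differentiated muscle markers, the summed level ran from 8.65 to 12.8 CPM on day 0, from 44.0 to 70.8 CPM on day 1 and from 1657 to 1769 CPM on day 6 of C2C12. In LHCN-M2 the same sum ran from 0.838 to 1.59 CPM, from 91.0 to 116 CPM and from 3743 to 4272 CPM on days 0, 1 and 12. The 7 myoblast markers summed to between 301 and 319 CPM, between 479 and 509 CPM and between 1724 and 1906 CPM on days 0, 1 and 6 of C2C12, with Mstn at 0 counts. In LHCN-M2 they summed to between 1166 and 1586 CPM, between 2597 and 3011 CPM and between 3286 and 3592 CPM on days 0, 1 and 12, with PAX7 at 0 counts. DES averaged 303, 1304 and 1875 CPM and CHRNA1 476, 908 and 1088 CPM on these days. MYF5 went the other way, at 269, 64.6 and 14.2 CPM, and MYOD1 averaged 55.6, 261 and 117 CPM. In C2C12, Des and Chrna1 were the largest on day 6, at 793 and 767 CPM. Summed immune markers stayed between 17.0 and 24.8 CPM in C2C12, most of it Cd14 at 17.9, 19.7 and 18.6 CPM on days 0, 1 and 6, and between 1.89 and 4.67 CPM in LHCN-M2. Ptprc (CD45) averaged at most 0.0485 CPM on any day of C2C12. The 4 smooth muscle markers summed to between 383 and 412 CPM, between 406 and 519 CPM and between 67.2 and 78.4 CPM on days 0, 1 and 6 of C2C12. In LHCN-M2 the sum was between 1.43 and 2.201 CPM, between 6.90 and 9.21 CPM and between 11.2 and 15.8 CPM on days 0, 1 and 12. Most of the C2C12 sum was Actg2, at 331, 383 and 69.0 CPM. Most of the LHCN-M2 sum was LMOD1, at 1.07, 7.38 and 12.7 CPM. In that line ACTG2 averaged 0.299, 0.0334 and 0.0492 CPM, and MYH11 0.470, 0.615 and 0.570 CPM. The 4 adipocyte markers summed to between 6.87 and 8.39 CPM on day 0, between 0.240 and 0.582 CPM on day 1 and between 0.0606 and 0.243 CPM on day 6 of C2C12. In LHCN-M2 they summed to between 1.16 and 2.78 CPM, between 0.163 and 0.561 CPM and between 0.105 and 0.751 CPM on days 0, 1 and 12. Most of the day 0 sum was Fabp4, which averaged 7.47, 0.401 and 0.0894 CPM on days 0, 1 and 6 of C2C12, and FABP4, which averaged 1.54, 0.176 and 0.0229 CPM in LHCN-M2. Adiponectin (Adipoq, ADIPOQ) averaged at most 0.0257 CPM in C2C12 and had no counts in LHCN-M2. The part of these lists in the SOCS levels was not tested. In bulk libraries, fewer cells of a type and less RNA per cell cannot be told apart. On the third principal component, 2 LHCN-M2 libraries stood apart from their own day, day 0 replicate 2 and day 12 replicate 1. In C2C12, day 6 replicate 2 stood apart in the same way, at 44.5 against -28.3 to -6.55 in the other day 6 libraries. Values without these libraries are given for several results that they move by over 1.5 times.

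The promoters of Cish, Socs1 and Socs3 are printed because these genes are the ones in which STAT or interferon response motifs were found. RefSeq windows on GRCm38.p6, from 250 bases before to 50 bases after the transcript start, were at hand for 4 of the 8 mouse genes, Cish, Socs1, Socs3 and Socs4. They were searched on both strands for TTCNNNGAA, the GAS motif that STAT dimers bind, and for GAAA, any 2 bases and GAAA again, the repeat at the core of the interferon-stimulated response element. Positions are counted from 1 at the first transcribed base, and bases before it are negative. The start is that of RefSeq, and the bases just after it were found in a GENCODE transcript for Cish and Socs1 and in none for Socs3 and Socs4. The windows are shown 5′ to 3′ up to 20 bases after the start, with the matches in capitals, for Cish at chr9:107296409-107296678 on the plus strand, Socs1 at chr16:10785517-10785786 on the minus strand and Socs3 at chr11:117969347-117969616 on the minus strand.
Cish: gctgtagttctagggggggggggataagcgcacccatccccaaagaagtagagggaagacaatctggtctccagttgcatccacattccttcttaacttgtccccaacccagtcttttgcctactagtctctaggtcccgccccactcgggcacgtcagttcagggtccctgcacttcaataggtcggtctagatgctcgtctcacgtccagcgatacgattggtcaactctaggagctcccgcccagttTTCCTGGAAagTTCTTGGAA
Socs1: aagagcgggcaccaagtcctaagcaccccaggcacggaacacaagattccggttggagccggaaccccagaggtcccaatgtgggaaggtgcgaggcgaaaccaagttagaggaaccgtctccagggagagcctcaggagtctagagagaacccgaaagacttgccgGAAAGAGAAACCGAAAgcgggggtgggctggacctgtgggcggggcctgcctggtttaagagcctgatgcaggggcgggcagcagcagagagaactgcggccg
Socs3: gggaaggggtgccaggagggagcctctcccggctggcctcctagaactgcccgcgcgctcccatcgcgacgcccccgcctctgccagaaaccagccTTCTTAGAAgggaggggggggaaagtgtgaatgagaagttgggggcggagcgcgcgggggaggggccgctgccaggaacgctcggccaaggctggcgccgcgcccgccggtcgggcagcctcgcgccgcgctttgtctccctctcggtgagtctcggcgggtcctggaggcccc

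Cish held 2 GAS matches, TTCCTGGAA at bases 1 to 9 and TTCTTGGAA at bases 12 to 20. Socs3 held 1 GAS match, TTCTTAGAA at bases -154 to -146. Socs1 held 2 overlapping matches to the GAAA repeat, GAAAGAGAAA at bases -83 to -74 and GAAACCGAAA at bases -77 to -68, and the 2 share 4 bases. The window of Socs4 held neither motif. Among all 32851 windows of this length, from 27025 genes, 8.3% held TTCNNNGAA and 3.44% held the GAAA repeat. A match is a stretch of letters and not a measured binding site.

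Cish (CISH), a STAT5 target that restrains growth hormone and interleukin-2 family receptors, had its lowest level on the last day in both lines. In C2C12 it had 2.85, 2.86, 3.57 and 3.48 CPM on day 0, 0.962, 1.25, 1.24 and 0.875 CPM on day 1, and 0.898, 0.606, 0.409 and 0.752 CPM on day 6. Every day 1 and day 6 library lay below every day 0 library, while 1 day 6 library reached into the range of day 1. The log2 fold change was -1.56 ± 0.27 (SE) for day 1 against day 0 and -2.25 ± 0.28 for day 6 against day 0, a level 4.75-fold lower on day 6. These values rest on few reads, between 15 and 131 counts per library.

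In LHCN-M2, CISH (ENSG00000114737, GRCh38 chr3:50606490-50611831, minus strand) had 1.14, 2.63, 1.14 and 1.66 CPM on day 0, 1.59, 2.03, 1.95 and 2.08 CPM on day 1, and 0.366, 0.481, 0.316 and 0.248 CPM on day 12. All day 12 libraries lay below all libraries of both earlier days, and days 0 and 1 overlapped. The log2 fold change was -2.22 ± 0.34 for day 12 against day 0 and -2.44 ± 0.34 for day 12 against day 1. For day 1 against day 0 it was 0.22 ± 0.30, and 0.57 without day 0 replicate 2, the library with 2.63 CPM. Counts of CISH ran from 11 to 99 per library. On the opposite strand, MAPKAPK3 (a stress kinase) overlaps the gene with 30562 counts in all, against 650 for CISH, and averaged 91.1, 47.9 and 49.4 CPM on days 0, 1 and 12. No strand setting of the counting is given in the sources used here, so reads of the pair cannot be told apart, and the part of MAPKAPK3 in the CISH values was not tested.

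Socs1, the inhibitor of JAK kinases and of interferon signalling, was a low gene in both lines. In C2C12 it had 8.74, 6.90, 3.96 and 6.05 CPM on day 0, 9.82, 8.91, 7.97 and 6.87 CPM on day 1, and 4.97, 5.84, 3.98 and 5.14 CPM on day 6. Day 0 spread widely and overlapped both other days, and all day 6 libraries lay below all day 1 libraries, with a log2 fold change of -0.75 ± 0.19 between those 2 days. In LHCN-M2, SOCS1 (ENSG00000185338, GRCh38 chr16:11254405-11256200, minus strand) had 1.62, 1.59, 1.32 and 1.64 CPM on day 0, 0.390, 0.467, 0.387 and 0.935 CPM on day 1, and 1.60, 1.44, 1.05 and 0.675 CPM on day 12. All day 1 libraries lay below day 0, with a log2 fold change of -1.50 ± 0.36, and day 12 overlapped both other days. Replicate 4 of day 1 was higher than the other 3 libraries of that day. SOCS1 had between 16 and 70 counts per library here, and RMI2, a genome stability gene on the opposite strand that overlaps it, averaged 10.1, 2.12 and 3.54 CPM on days 0, 1 and 12. Both genes were thus lowest on day 1, and the part of RMI2 in the SOCS1 values was not tested.

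Socs2, which limits growth hormone and insulin-like growth factor signalling, stood far lower on day 1 than on the days around it in C2C12. It had 103, 97.6, 94.6 and 90.5 CPM on day 0, 21.03, 22.7, 18.3 and 21.95 CPM on day 1, and 95.5, 91.6, 89.7 and 93.0 CPM on day 6. Every day 1 library lay far below all others, and days 0 and 6 overlapped. The level was 4.596-fold lower on day 1 than on day 0, a log2 fold change of -2.20 ± 0.07, and 4.403-fold higher on day 6 than on day 1, a log2 fold change of 2.14 ± 0.07. Between day 6 and day 0 the log2 fold change was -0.06 ± 0.06.

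In LHCN-M2 the middle day stood on the other side. SOCS2 (ENSG00000120833, GRCh38 chr12:93569814-93583487, plus strand) had 2.24, 1.59, 3.36 and 3.74 CPM on day 0, 5.20, 6.90, 5.98 and 5.10 CPM on day 1, and 2.72, 2.92, 3.05 and 1.96 CPM on day 12. Every day 1 library lay above all others. The log2 fold change was 1.08 ± 0.24 for day 1 against day 0, 0.92 without day 0 replicate 2, and -1.13 ± 0.24 for day 12 against day 1. The antisense RNA SOCS2-AS1 overlaps the gene and averaged 0.468, 1.29 and 0.676 CPM on days 0, 1 and 12, with 408 counts in all against 1882 for SOCS2. It was also highest on day 1, its part in the SOCS2 values was not tested, and the difference of the SOCS2 fold changes between the lines was not tested.

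**Figure D1:**
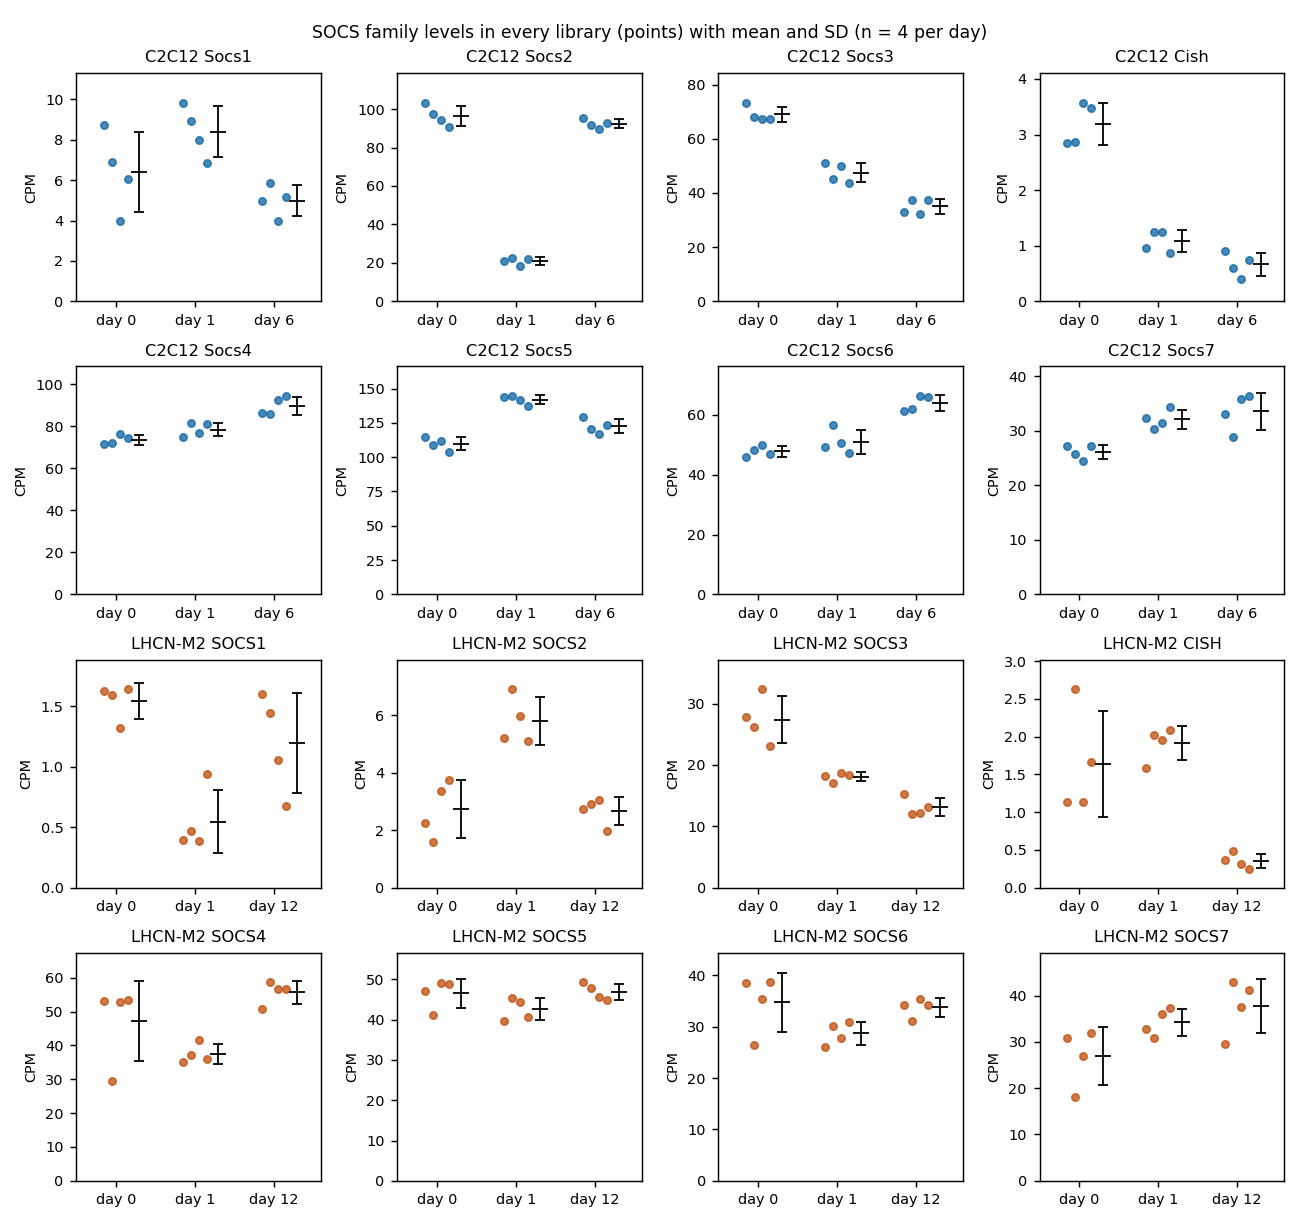
Level of each SOCS family gene in every library, in CPM on axes that start at 0, by day of differentiation; points are libraries and the bars beside them give mean and SD (n = 4 per day). C2C12 Socs2 averaged 96.5, 20.996 and 92.4 CPM on days 0, 1 and 6, LHCN-M2 SOCS2 averaged 2.73, 5.79 and 2.66 CPM on days 0, 1 and 12, and SOCS3 stepped down over the days in both lines.

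Socs3, the main brake on interleukin-6 and leukaemia inhibitory factor signalling through the shared receptor gp130, was lower on each later day in both lines. In C2C12 it had 73.2, 68.1, 67.1 and 67.4 CPM on day 0, 51.1, 45.2, 50.004 and 43.8 CPM on day 1, and 33.1, 37.6, 32.1 and 37.3 CPM on day 6. No library of one day overlapped another day. The log2 fold change was -0.54 ± 0.07 for day 1 against day 0 and -0.98 ± 0.07 for day 6 against day 0. In LHCN-M2, SOCS3 (ENSG00000184557, GRCh38 chr17:78356778-78360077, minus strand) had 27.7, 26.2, 32.3 and 23.1 CPM on day 0, 18.3, 17.0, 18.6 and 18.4 CPM on day 1, and 15.2, 12.1, 12.2 and 13.1 CPM on day 12. The 3 days again did not overlap. The log2 fold change was -0.60 ± 0.11 for day 1 against day 0 and -1.06 ± 0.11 for day 12 against day 0, with day 12 at -1.13 ± 0.11 when both libraries that stood apart were left out.

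Socs4 and Socs5 act mainly on epidermal growth factor receptor signalling. Socs4 averaged 73.6 ± 2.33, 78.5 ± 3.27 and 89.8 ± 4.28 CPM (SD, n = 4) on days 0, 1 and 6 of C2C12. The day 6 libraries lay above all others, and days 0 and 1 overlapped, with a log2 fold change of 0.29 ± 0.05 (SE) for day 6 against day 0. In LHCN-M2, SOCS4 (ENSG00000180008, GRCh38 chr14:55027230-55049488, plus strand) had 53.2, 29.5, 52.9 and 53.5 CPM on day 0, 35.2, 37.2, 41.6 and 35.9 CPM on day 1, and 50.9, 58.6, 56.7 and 56.7 CPM on day 12. Day 0 replicate 2 lay below every other library, which made days 0 and 1 overlap. The log2 fold change for day 1 against day 0 was -0.33 ± 0.15 with that library and -0.48 ± 0.07 without it. For day 12 against day 0 it was 0.24 ± 0.15 with it and 0.09 ± 0.07 without it, and for day 12 against day 1 it was 0.57 ± 0.15. Socs5 averaged 109.9 ± 4.51, 142 ± 3.27 and 123 ± 5.18 CPM on days 0, 1 and 6 of C2C12, and the 3 days did not overlap, so that day 1 was the highest. SOCS5 (ENSG00000171150, GRCh38 chr2:46698952-46780245, plus strand) averaged 46.6 ± 3.61, 42.6 ± 2.76 and 47.0 ± 1.99 CPM on days 0, 1 and 12 of LHCN-M2, where all 3 pairs of days overlapped.

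Socs6 and Socs7 are adaptors linked to insulin and growth factor receptor signalling. Socs6 averaged 47.8 ± 1.72, 50.8 ± 4.07 and 63.9 ± 2.59 CPM on days 0, 1 and 6 of C2C12. Its day 6 libraries lay above all others, with a log2 fold change of 0.42 ± 0.06 against day 0, and days 0 and 1 overlapped. SOCS6 (ENSG00000170677, GRCh38 chr18:70288901-70330200, plus strand) averaged 34.8 ± 5.72, 28.7 ± 2.22 and 33.8 ± 1.82 CPM on days 0, 1 and 12 of LHCN-M2, and only day 12 against day 1 was free of overlap, with a log2 fold change of 0.24 ± 0.11. Socs7 averaged 26.1 ± 1.30, 32.1 ± 1.70 and 33.5 ± 3.46 CPM on days 0, 1 and 6 of C2C12, where both later days lay above day 0 and overlapped each other. SOCS7 (ENSG00000274211, GRCh38 chr17:38352228-38405593, plus strand) averaged 27.0 ± 6.30, 34.3 ± 2.93 and 37.8 ± 5.88 CPM on days 0, 1 and 12 of LHCN-M2. All pairs of its days overlapped, and its day 1 against day 0 log2 fold change of 0.34 ± 0.16 was 0.22 without day 0 replicate 2, the lowest library at 18.1 CPM.

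**Figure D2:**
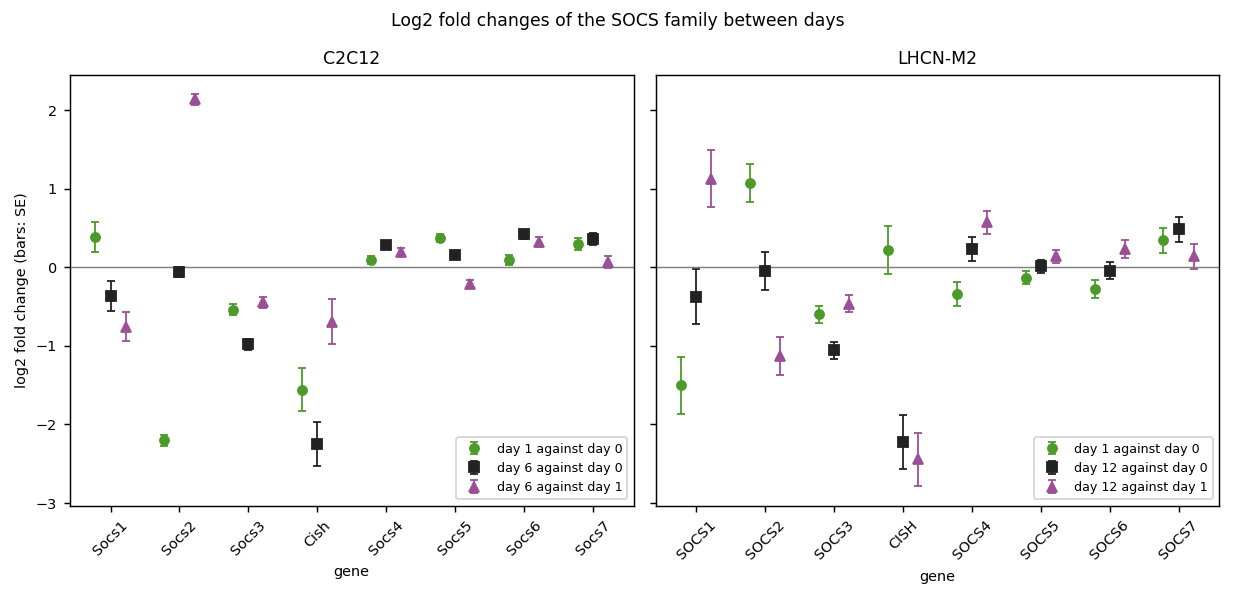
Log2 fold change of each SOCS family gene between pairs of days in C2C12 and LHCN-M2, with bars for the SE of the edgeR fit. Socs2 lies at -2.20 and 2.14 in the C2C12 comparisons with day 1 and SOCS2 at 1.08 and -1.13 in those of LHCN-M2, while SOCS3 and CISH lie below 0 in both lines on the last day against day 0.

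Over the family, 2 genes had all libraries higher and 3 all libraries lower on day 1 than on day 0 of C2C12. Of the 17065 genes tested in this line, 23.1% were higher without overlap, 22.5% lower and 45.7% either. Day 6 against day 0 had 4 higher and 2 lower genes of the family, beside 30.2% higher, 28.8% lower and 59% either among all genes. Day 6 against day 1 had 3 higher and 3 lower genes, beside 30.6%, 26.1% and 56.7%. In LHCN-M2, 1 gene was higher and 2 were lower on day 1 than on day 0, beside 22% higher, 21.7% lower and 43.6% either of the 18214 genes tested. Day 12 against day 0 had 0 higher and 2 lower genes, beside 24.6%, 24% and 48.6%. Day 12 against day 1 had 2 higher and 3 lower genes, beside 23.8%, 22% and 45.8%. The members were selected on these levels, so nothing is read from the shares. The median log2 fold change of the 8 genes was 0.09, 0.05 and -0.07 in the 3 C2C12 comparisons and -0.20, -0.04 and 0.14 in the 3 LHCN-M2 comparisons, in the order given. Comparisons within a line share libraries, so these counts are not independent of each other. SOCS3 and CISH were the members without overlap in the same direction in both lines on the last day against day 0. SOCS2 was the member without overlap in opposite directions, on day 1 against day 0 and on the last day against day 1.

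Divided by gene model length, so that genes can be set against each other, the family was led by Socs3 on day 0 and by Socs5 on the later days of C2C12. On day 0, Socs3 led with 23.8 ± 0.989 CPM per kb (SD, n = 4), ahead of Socs5 at 17.1 ± 0.702, and the libraries of the pair did not overlap. On days 1 and 6 Socs5 led instead, with 22.1 ± 0.509 and 19.1 ± 0.808 CPM per kb, against 16.4 ± 1.24 and 12.1 ± 0.972 for Socs3. Socs4 and Socs2 overlapped on day 0 at 10.7 ± 0.339 and 10.1 ± 0.560 CPM per kb, whereas on day 1 Socs2, at 2.203 ± 0.205, stood next to Socs1, at 2.89 ± 0.435, and overlapped with it. Socs6 and Socs7 overlapped on day 1, as did Socs4 and Socs3 on day 6. Cish was the lowest gene on all 3 days, at 0.497 ± 0.0599, 0.169 ± 0.0300 and 0.104 ± 0.0325 CPM per kb, and did not overlap with its neighbour.

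In LHCN-M2, SOCS3 led on days 0 and 1 and SOCS4 on day 12. SOCS3 was first on days 0 and 1, at 9.9997 ± 1.41 and 6.61 ± 0.268 CPM per kb, and did not overlap with the next gene. On day 12 SOCS4 led at 7.91 ± 0.476 CPM per kb, free of overlap with SOCS5 at 6.18 ± 0.262, and SOCS3 came after SOCS5 and SOCS6 at 4.80 ± 0.529, overlapping with SOCS6 above it and SOCS7 below it. SOCS4, SOCS5 and SOCS6 overlapped in sequence on days 0 and 1. The 3 lowest genes were SOCS1, SOCS2 and CISH on every day, between 0.0690 and 0.859 CPM per kb. Among them SOCS2 overlapped with CISH on day 0, CISH with SOCS1 on day 1 and SOCS1 with SOCS2 on day 12. Levels per kb are not set against each other between the lines, since the gene models differ.

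CISH and SOCS1 to SOCS3, the members that STATs induce, made up a smaller share of the summed family level on the later days. In C2C12 they held 50.7% ± 1.33 of the summed CPM per kb on day 0, 33.8% ± 1.62 on day 1 and 35.8% ± 1.54 on day 6 (SD, n = 4), with every day 1 and day 6 library below every day 0 library. In LHCN-M2 they held 35.0% ± 4.84, 29.3% ± 0.843 and 19.7% ± 2.33 on days 0, 1 and 12, with every day 12 library below the rest and days 0 and 1 overlapping. Socs3 alone held 33.01%, 25.6% and 18.4% on days 0, 1 and 6 of C2C12, and SOCS3 held 30.2%, 23.8% and 16.0% on days 0, 1 and 12 of LHCN-M2. The sum over the family was 72.2 ± 2.33, 64.0 ± 1.52 and 66.0 ± 1.63 CPM per kb in C2C12 and 33.4 ± 4.08, 27.8 ± 1.09 and 30.1 ± 0.352 CPM per kb in LHCN-M2.

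**Figure D3:**
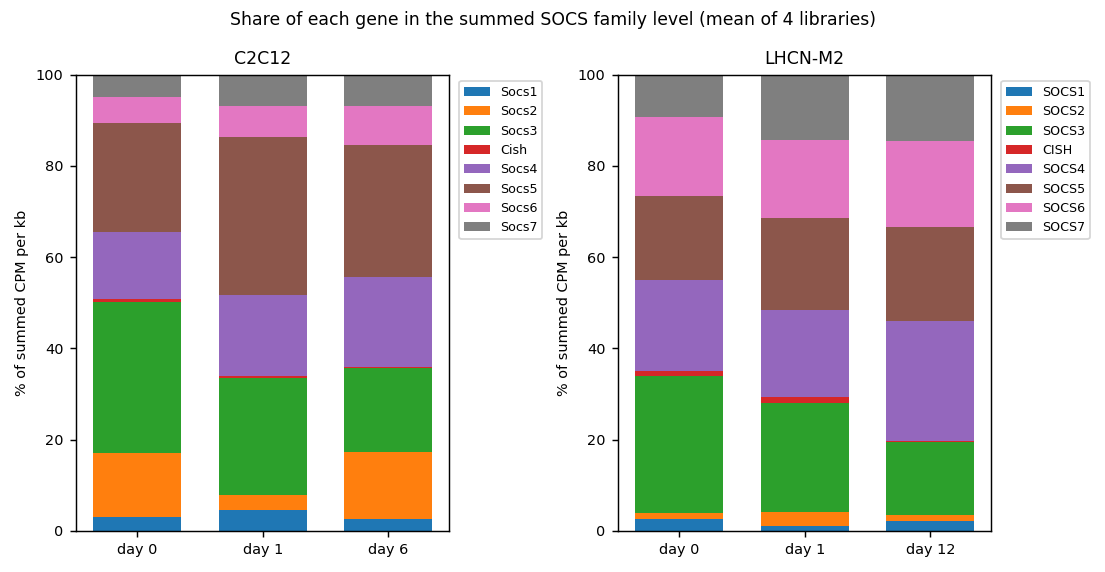
Share of each gene in the summed SOCS family level, in percent of the summed CPM per kb, as the mean of 4 libraries by day. The Socs3 share is 33.01% on day 0 and 18.4% on day 6 of C2C12, that of SOCS3 is 30.2% on day 0 and 16.0% on day 12 of LHCN-M2, and Socs2 holds 14.0%, 3.44% and 14.7% on days 0, 1 and 6 of C2C12.

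The genes whose log2 CPM followed a member most closely over the 12 libraries of a line were looked up for the 2 members with the widest range in each line. Closest to Socs2 in C2C12, among 13235 genes, were Tars (a threonyl-tRNA synthetase, Pearson r = 0.995), Got1 (an aspartate aminotransferase, r = 0.993) and Mthfd1l (a mitochondrial folate enzyme, r = 0.992). Tars averaged 434, 179 and 394 CPM on days 0, 1 and 6, low on day 1 as Socs2 was. Closest to Cish were Klf15 (a Krüppel-like transcription factor, r = 0.983), Nptxr (r = 0.975) and Myo1d (r = 0.975), and Klf15 averaged 15.9, 0.996 and 0.352 CPM over the days. In LHCN-M2, among 13941 genes, HECTD3, BASP1 and SLC25A1 were closest to CISH (r = 0.970, 0.964 and 0.963), and ISOC1, KCNN4 and RRP15 to SOCS1 (r = 0.944, 0.923 and 0.919). The 12 libraries form 3 days, so these values describe shared steps between days.

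The pathway around the SOCS genes was read from 6 lists with 100 genes in all, of which 76 were tested in C2C12 and 78 in LHCN-M2. By edgeR's quasi-likelihood test with Benjamini-Hochberg adjusted p under 0.05, 26 rose and 20 fell on day 1 against day 0 of C2C12. Among all genes tested there, 25.9% rose, 24.4% fell and 50.3% did either. On day 6, 26 rose and 34 fell against day 0, beside 33.1%, 32.5% and 65.6% of all genes, and 25 rose and 28 fell against day 1, beside 32.8%, 28.6% and 61.4%. In LHCN-M2, 20 rose and 25 fell on day 1 against day 0, beside 23.4%, 23.5% and 46.9%. On day 12, 21 rose and 26 fell against day 0, beside 27.1%, 27.5% and 54.6%, and 15 rose and 19 fell against day 1, beside 20.9%, 18.8% and 39.8%. The medians of the lists together lay between -0.09 and -0.00 in log2, and those of all genes tested between -0.03 and 0.03.

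Among 11 tested ligands, Il6, the cytokine that induces Socs3, fell to 1.07 ± 0.325 CPM on day 1 of C2C12, against 4.56 ± 0.656 CPM on day 0 (SD, n = 4), a log2 fold change of -2.10 ± 0.24 (SE, adjusted p = 3.37e-07). In LHCN-M2, IL6 was higher on day 1, at 0.914 CPM against 0.340 CPM on day 0, with a log2 fold change of 1.42 ± 0.41 (adjusted p = 0.0104), on few reads. Lif, another gp130 cytokine, rose on the last day in both lines, by 1.18 ± 0.13 in C2C12 (adjusted p = 8.72e-08) and by 1.05 ± 0.07 in LHCN-M2 (adjusted p = 1.07e-08) in log2 against day 0. Among the receptors, 3 rose and 8 fell of 15 tested on day 6 against day 0 of C2C12, beside 33.1% and 32.5% of all genes. On day 12 against day 0 of LHCN-M2, 3 rose and 5 fell of 18, beside 27.1% and 27.5%. Without day 0 replicate 2 the receptor counts there were 3 and 8. Ghr, the growth hormone receptor that SOCS2 restrains, had 157 CPM on day 1 and 159 CPM on day 0 of C2C12 (log2 fold change -0.02 ± 0.05, adjusted p = 0.827).

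Of the kinases and STATs, 10 of 11 were tested in each line. On day 6 against day 0 of C2C12, 0 were higher and 7 lower, with a median log2 fold change of -0.45. Of all genes, 33.1% rose and 32.5% fell in that comparison. Tyk2 fell by 0.84 ± 0.11 (adjusted p = 4.78e-07), Jak3 by 1.00 ± 0.17 (adjusted p = 2.13e-05) and Stat5a, a factor that induces Cish, by 0.60 ± 0.08 (adjusted p = 5.5e-07) in log2. On day 1 against day 0 of C2C12, 5 of the list rose and 2 fell, with a median of 0.16, beside 25.9% and 24.4% of all genes. In LHCN-M2, 6 rose and 0 fell on day 1 against day 0, with a median of 0.39, beside 23.4% and 23.5%. On day 12 against day 0 of that line, 6 rose and 2 fell, beside 27.1% and 27.5%. These were 6 and 1 without day 0 replicate 2 and 5 and 1 without day 12 replicate 1. The medians on the last day against day 1 were -0.50 in C2C12 and -0.35 in LHCN-M2. STAT5A had 20.2 ± 0.607 CPM on day 1, against 5.87 ± 1.16 CPM on day 0, a log2 fold change of 1.78 ± 0.15 (adjusted p = 8.9e-08), while CISH overlapped between these days.

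The SOCS box ligase partners couple SOCS proteins to ubiquitin transfer. On day 6 against day 0 of C2C12, 8 of 9 were higher and 0 lower, with a median log2 fold change of 0.47. Of all genes, 33.1% rose and 32.5% fell in that comparison. Nedd8, the modifier that activates cullins, rose by 0.90 ± 0.06 (adjusted p = 2.69e-11), Rnf7, a RING subunit, by 0.76 ± 0.06 (adjusted p = 2.61e-10), and Cul5 did not pass the test (0.05 ± 0.05, adjusted p = 0.378). On day 1 against day 0 of C2C12, 3 of the 9 rose and 1 fell, beside 25.9% and 24.4% of all genes. In LHCN-M2, 0 rose and 6 fell on day 1 against day 0, with a median of -0.48, beside 23.4% and 23.5%. On day 12 against day 0 of that line, 1 rose and 5 fell, beside 27.1% and 27.5%. Without day 0 replicate 2, 0 rose and 6 fell, with a median of -0.25, and 2 rose and 3 fell. In that library ELOB (elongin B) had 360.1 CPM, against 124 to 129 CPM in the other 3 of day 0, and its log2 fold change for day 1 against day 0 was -0.83 ± 0.28 (adjusted p = 0.0237) with it and -0.25 ± 0.09 (adjusted p = 0.0184) without it. The ELOB call was lost under 4 of its alternatives, with adjusted p between 0.0529 and 0.0654. CUL5, the cullin of the SOCS ligase, rose by 0.90 ± 0.15 on day 12 against day 0 (adjusted p = 0.000106). On the last day against day 1, 8 partners rose and 0 fell in C2C12, and 4 rose and 0 fell in LHCN-M2. The medians were 0.48 and 0.25. Of all genes, 32.8% rose and 28.6% fell there in C2C12, and 20.9% rose and 18.8% fell in LHCN-M2.

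Of the other negative regulators, 6 rose and 2 fell of 12 tested on day 1 against day 0 of C2C12. In LHCN-M2, 3 rose and 3 fell of 12, or 3 and 5 without day 0 replicate 2. Of all genes in this comparison, 25.9% rose and 24.4% fell in C2C12, and 23.4% rose and 23.5% fell in LHCN-M2. Sh2b3 (LNK), an adaptor that inhibits JAK2, rose by 0.81 ± 0.06 (adjusted p = 7.19e-10) in C2C12, whereas SH2B3 fell by 1.17 ± 0.13 (adjusted p = 3.35e-06) in LHCN-M2. Of the STAT target genes, 9 rose and 7 fell of 19 on day 1 against day 0 of C2C12, beside the same 25.9% and 24.4%. In LHCN-M2, 6 rose and 5 fell of 18, beside 23.4% and 23.5%. Pim1, a survival kinase, fell in C2C12 by 1.17 ± 0.11 on day 1 (adjusted p = 3.61e-08) and by 2.28 ± 0.12 on day 6 (adjusted p = 8.49e-13) against day 0, in log2. Its human counterpart PIM1 rose by 1.42 ± 0.20 on day 1 (adjusted p = 2.9e-05) and by 1.33 ± 0.20 on day 12 (adjusted p = 4.19e-05). Cebpd, a STAT3 target, fell by 1.94 ± 0.11 on day 1 in C2C12 (adjusted p = 1.04e-11), and CEBPD rose by 1.04 ± 0.21 in LHCN-M2 (adjusted p = 0.000735). Other genes of the list went the other way on day 1 against day 0. In C2C12, Ccnd1 rose by 1.07 ± 0.05 (adjusted p = 1.18e-12) and Bcl6 by 0.80 ± 0.09 (adjusted p = 2.48e-07). In LHCN-M2, CCND1 and BCL2L1 had log2 fold changes of -1.43 and -1.01. The differences between the lines were not tested.

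**Figure D4:**
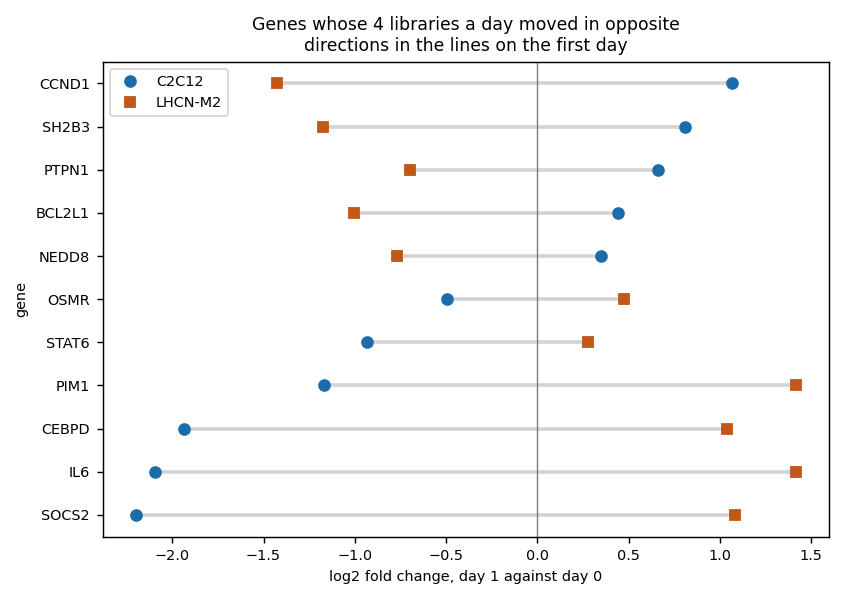
Log2 fold change of day 1 against day 0 in C2C12 and in LHCN-M2 for 11 genes, SOCS2 and 10 genes named from the pathway lists. Their libraries were free of overlap between these days in both lines, on opposite sides. List genes not named in this comparison in either line were not searched. SOCS2 lies at -2.20 in C2C12 and 1.08 in LHCN-M2, IL6 at -2.10 and 1.42, and CCND1 at 1.07 and -1.43.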

How the data were processed

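RNA of C2C12 and LHCN-M2 was sequenced after poly-T bead capture and random hexamer cDNA synthesis, per the labels' protocols. The authors deposited 1 table of raw read counts per gene for each line, with gene lengths. The submitters' processing notes name HISAT2 2.2.1 and featureCounts 2.0.6, beside fastp and StringTie 2.2.3, with the builds mm10, GRCh38 and hg38; which annotation was counted and whether strand was used is not given in the sources used here. Mouse gene positions are not printed, since those in the C2C12 table differ from the annotation at hand.

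Counts were filtered with filterByExpr and scaled by TMM, and edgeR 4.0.16 (R 4.3.3) fitted its quasi-likelihood model to the 12 libraries of a line with day as a factor. P-values were adjusted by Benjamini-Hochberg over all genes tested, with a threshold of 0.05. The fit was tested on simulated data in which no library stood apart. How it behaves with libraries that stand apart was not tested in this way. Standard errors come from the same fit. Levels per kb divide CPM by the deposited gene length. No column of the tables was left out.

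The family members and the pathway lists were chosen with earlier results of these data known. Genes of the lists were named where adjusted p was under 0.05, a mean reached 1 CPM and libraries did not overlap, up to 2 rises and 2 falls per list and comparison, and could then be given at other days and in the other line. Alternatives were median-ratio scaling, a stricter filter and no filter, DESeq2 1.42.0, a fit on only the 2 days compared, a replicate block, and each library left out in turn. The alternatives that leave out both LHCN-M2 libraries standing apart, and the counts per list without those libraries or C2C12 day 6 replicate 2, were added after seeing the data. Some results of the lists are not reported here.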

Additional observations from a re-analysis of the deposited data

Results flagged for a closer look

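In 3 of the 48 groups of 4 libraries of a SOCS gene, 1 library lay far from the other 3, where chance gives about 1 in 20. SOCS1 in LHCN-M2 had 1.32 CPM in day 0 replicate 3, against 1.59 to 1.64 CPM in the other day 0 libraries. It had 0.935 CPM in day 1 replicate 4, against 0.387 to 0.467 CPM in the other day 1 libraries. SOCS4 had 29.5 CPM in LHCN-M2 day 0 replicate 2, against 52.9 to 53.5 CPM in the other day 0 libraries.

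Several genes had all libraries on one side in C2C12 and on the other side in LHCN-M2 in the matching comparison. The difference was not tested in any of them, the last days differ (day 6 and day 12), and the 3 comparisons of a line share libraries. Only the SOCS genes and the list genes named in that comparison in either line were searched, so the numbers are not counts over the lists. Of all genes tested, 45.7% in C2C12 and 43.6% in LHCN-M2 were free of overlap on day 1 against day 0, in either direction. The share of all genes on opposite sides in the lines was not computed. On day 1 against day 0, 11 such genes are given, with C2C12 before LHCN-M2 as log2 fold changes. SOCS2 had -2.20 and 1.08, IL6 had -2.10 and 1.42, and CEBPD had -1.94 and 1.04. PIM1 had -1.17 and 1.42, STAT6 had -0.93 and 0.28, and OSMR had -0.50 and 0.47. CCND1 had 1.07 and -1.43, SH2B3 had 0.81 and -1.17, and PTPN1 had 0.66 and -0.70. BCL2L1 had 0.44 and -1.01, and NEDD8 had 0.35 and -0.77, the LHCN-M2 value being -0.45 without day 0 replicate 2.

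On the last day against day 0, 59% of all genes in C2C12 and 48.6% in LHCN-M2 were free of overlap, and 7 such genes are given. PIM1 had -2.28 and 1.33, BCL3 had -2.04 and 0.57, and IL6 had -1.20 and 1.29. CBLB had -0.83 and 0.29, and STAT5A had -0.60 and 1.06. CCND1 had 1.60 and -1.16, and RBX1 had 0.46 and -0.48, the LHCN-M2 value being -0.23 without day 0 replicate 2. On the last day against day 1, where 56.7% and 45.8% of all genes were free of overlap, 5 are given. SOCS2 had 2.14 and -1.13, and IL13RA1 had 0.31 and -0.50. IRF9 had 0.24 and -1.10, JAK1 had -0.22 and 0.37, and IRF1 had -0.62 and 0.28.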

How the results depend on the processing

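No count of calls over all genes or over the 6 lists together moved by more than 1.5 times under any alternative run, and of the tested results only Ghr on day 1 against day 0 of C2C12 reversed. Its log2 fold change was not called at any setting. It was 0.00981 with the stricter filter on low counts and between -0.0443 and 0.0482 with 1 library left out. Over the alternatives that kept all libraries of the 2 days compared, between 24 and 27 list genes rose on day 1 against day 0 of C2C12. Between 18 and 20 fell, against 26 and 20 as reported. With 1 library of these days left out in turn, between 23 and 25 rose and between 18 and 21 fell. On day 12 against day 1 of LHCN-M2, between 13 and 20 rose and between 17 and 23 fell, against 15 and 19 as reported. There, with 1 library of the 2 days left out in turn, only between 10 and 12 rose and between 17 and 19 fell. Of 696 values of the SOCS genes under alternatives, 687 kept their sign. The 9 others belong to SOCS2, SOCS5 and SOCS6 on day 12 against day 0 of LHCN-M2, whose log2 fold changes were -0.05, 0.01 and -0.04. Of 136 results for list genes, 13 were no longer called under at least 1 alternative. They include ELOB on day 1 against day 0, CBLB, CNTF, IL6, RBX1 and TYK2 on day 12 against day 0, and IRF1, JAK1 and TIMP1 on day 12 against day 1 of LHCN-M2, and Jak3 and Stat6 on day 1 against day 0 of C2C12. Irf9 on day 6 against day 1 of C2C12 was called without the filter and with only these days in the fit, at adjusted p = 0.00926 and 0.0187, against 0.104 as reported. Without C2C12 day 6 replicate 2, the counts printed for single lists of that line were the same, while those over the 6 lists together moved slightly. On day 1 against day 0, 0 ligands rose rather than 1. On day 6 against day 1, 6 ligands rose rather than 7, 0 kinases and STATs rather than 1, and 3 other negative regulators rather than 2. Precision is limited for CISH and SOCS1 in LHCN-M2, with 650 and 524 counts in all.

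The same replicate numbers stand in every day, so a replicate block was fitted. Same-numbered libraries deviated together with correlations of -0.0527 to 0.0386 in C2C12 and -0.100 to 0.0914 in LHCN-M2. The origin of the replicates is not given, and whether same-numbered libraries share a culture was not tested. With the block, 24 list genes rose and 19 fell on day 1 against day 0 of C2C12, and 4322 of all genes rose and 4059 fell. On day 12 against day 0 of LHCN-M2, 18 list genes rose and 24 fell.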
